A study of Mus musculus with 8 samples.

Results

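Levels of 10 genes of the circadian clock were examined in skeletal progenitors of neonatal mice. They were chosen by gene symbol and each matched 1 of the 55471 gene entries of the count table, and all 10 were among the 22153 genes tested. Of these genes, 8 form what is called here the evening arm: the period genes Per1, Per2 and Per3, the nuclear receptor genes Nr1d1 and Nr1d2, and the genes Dbp, Tef and Hlf. The other two, Arntl and Npas2, form the Arntl arm. From the femur, the study sorted by flow cytometry the populations it names skeletal stem cells (SSC) and, downstream of them, the bone cartilage stromal progenitors (BCSP). Its groups were Tet1 KO SSC, WT SSC, Tet1 KO BCSP and WT BCSP, with 2 bulk RNA libraries in each, from pups aged 3 to 5 days. Tet1 encodes an enzyme that oxidises methylated cytosine in DNA. All groups, WT included, carry the strain name B6;129S4-Tet1tm1.1Jae/J.

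The titles number the libraries of each group round 1 and round 2. What a round stands for, the hour of collection, the sex of the pups and whether the libraries came from separate animals or pools are not given in the labels. The p-values therefore measure only the spread between these libraries, which may be technical. The deletion that the allele carries is not described in the labels either, and the counts cover the whole Tet1 gene.

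The mammalian clock is a feedback loop of transcription. The protein of Arntl, also called BMAL1, pairs with that of Clock or Npas2 and binds DNA sites called E-boxes, which switches on the period genes, Nr1d1, Nr1d2 and Dbp. Period proteins, together with cryptochromes, then inhibit that pair, the receptors made from Nr1d1 and Nr1d2 (REV-ERB alpha and beta) repress Arntl and Npas2 through elements called ROREs, and the proteins of Dbp, Tef and Hlf act on D-boxes. In tissues with a running clock, Arntl and Npas2 therefore peak out of phase with the other genes.

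Totals ran from 104782544 to 168004119 counts per library. Levels are given as CPM (counts per gene relative to the library total, scaled by TMM factors), and in each group the value of round 2 comes before that of round 1. Tet1 had 11.8 and 7.26 CPM in KO SSC, 19.6 and 15.6 CPM in WT SSC, 11.97 and 10.8 CPM in KO BCSP, and 11.0 and 21.6 CPM in WT BCSP. KO over WT, with the cell types combined, Tet1 gave a log2 fold change of -0.70 ± 0.23 (SE, adjusted p = 0.608 by edgeR's quasi-likelihood test). The library labelled WT BCSP round 2 thus lay within the KO range, against its label, and the fold changes of the 10 clock genes between rounds and over both cell types are also given without it. Without it that value was -0.90 ± 0.18 (adjusted p = 0.198 by edgeR). That library also had the strongest trend of its deviations with exon length, with a Spearman coefficient across 12307 genes of -0.495, against -0.244 to 0.355 in the other libraries. Eng, which encodes CD105, present on BCSP and absent from SSC by their definition, had 2.53 to 3.89 CPM in the SSC libraries and 25.7 to 50.5 CPM in the BCSP libraries.

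Promoter sequences were available for 9 of the 10 genes, in 12 windows of 300 bases (250 before and 50 after a transcript start, RefSeq, GRCm38.p6). The sequences shown are the matches to the 3 elements through which these genes act on each other, with the element in capitals. The E-box CACGTG occurred in 3 of the 12 windows, at 1 start of Per1 and both of Tef, and in 7.15% of the 32851 windows of all genes. The D-box, spelled TTATGTAA or TTACGTAA, occurred only in the window of Per3, at 2 places, and in 1.06% of all windows. A RORE match lay in 1 of 2 windows of Arntl and in 0.773% of all windows. Both strands were searched, and no match of one element overlapped one of another. The positions given here are those of the 30-base stretches shown, which hold the element and bases around it. The stretch with the E-box of Per1 lies at chr11:69098771-69098800 on the plus strand. Those with the E-boxes of Tef lie at chr15:81802534-81802563 and chr15:81811264-81811293 on the plus strand. Those with the D-boxes of Per3 lie at chr4:151044805-151044834 and chr4:151044852-151044881 on the minus strand. That with the RORE of Arntl lies at chr7:113207528-113207557 on the plus strand, which is after the start.
Per1 E-box: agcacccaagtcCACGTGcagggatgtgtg
Tef E-box, first start: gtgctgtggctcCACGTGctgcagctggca
Tef E-box, the second start: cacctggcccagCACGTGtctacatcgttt
Per3 D-box, nearer the start: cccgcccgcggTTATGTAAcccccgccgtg
Per3 D-box, farther from the start: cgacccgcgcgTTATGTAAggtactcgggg
Arntl RORE: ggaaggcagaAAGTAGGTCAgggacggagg
A match describes the letters of the window and no binding was measured.

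Both D-boxes lie in the 250 bases before the start of Per3, which are shown whole because Per3 had the largest fold change between genotypes among the 10 genes. The stretch is chr4:151044666-151044915 on the minus strand.
Per3 upstream: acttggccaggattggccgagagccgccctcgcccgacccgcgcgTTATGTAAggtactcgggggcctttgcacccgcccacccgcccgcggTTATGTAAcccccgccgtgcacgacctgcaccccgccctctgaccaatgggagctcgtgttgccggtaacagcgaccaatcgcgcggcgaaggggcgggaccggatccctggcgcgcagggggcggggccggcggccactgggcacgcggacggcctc
The capitals mark the 2 D-boxes, which begin at positions -158 and -205 relative to the start.

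In mm10, with GENCODE M21 annotation, the period genes lie at chr11:69095217-69109960 on the plus strand (Per1), chr1:91415982-91459324 on the minus strand (Per2) and chr4:151003652-151044665 on the minus strand (Per3). Nr1d1 is at chr11:98767932-98775333 and Nr1d2 at chr14:18204054-18239127, both on the minus strand. Dbp is at chr7:45705088-45710203 and Tef at chr15:81802421-81826863 on the plus strand, and Hlf at chr11:90336536-90390895 on the minus strand. Arntl is at chr7:113207465-113314126 and Npas2 at chr1:39193731-39363236, both on the plus strand.

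All 10 genes were detected in every library, the scarcest, Hlf, with 456 to 1113 raw counts. Per length of exon, Per1 was highest at a median of 31.8 CPM per kb over the 8 libraries (range 27.7 to 38.2), followed by Nr1d1 at 17.9 CPM per kb (14.6 to 22.4) and Per2 at 12.3 CPM per kb (9.77 to 18.2). The range of Per1 lay above all others. Tef at 9.41 and Nr1d2 at 9.33 CPM per kb followed, then Dbp at 4.72 CPM per kb. Per3 (2.80), Npas2 (2.37) and Arntl (1.48 CPM per kb) came after it, and Hlf was last at 0.757 CPM per kb (0.521 to 1.33). Below Per1, the ranges of all neighbours in this order overlapped. The spread over the libraries was narrowest for Per1, whose highest level was 1.38 times its lowest, and widest for Per3, with 3.67 times. In bulk libraries fewer cells of a type and less RNA per cell cannot be told apart, which holds for every level given here.

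**Figure D1:**
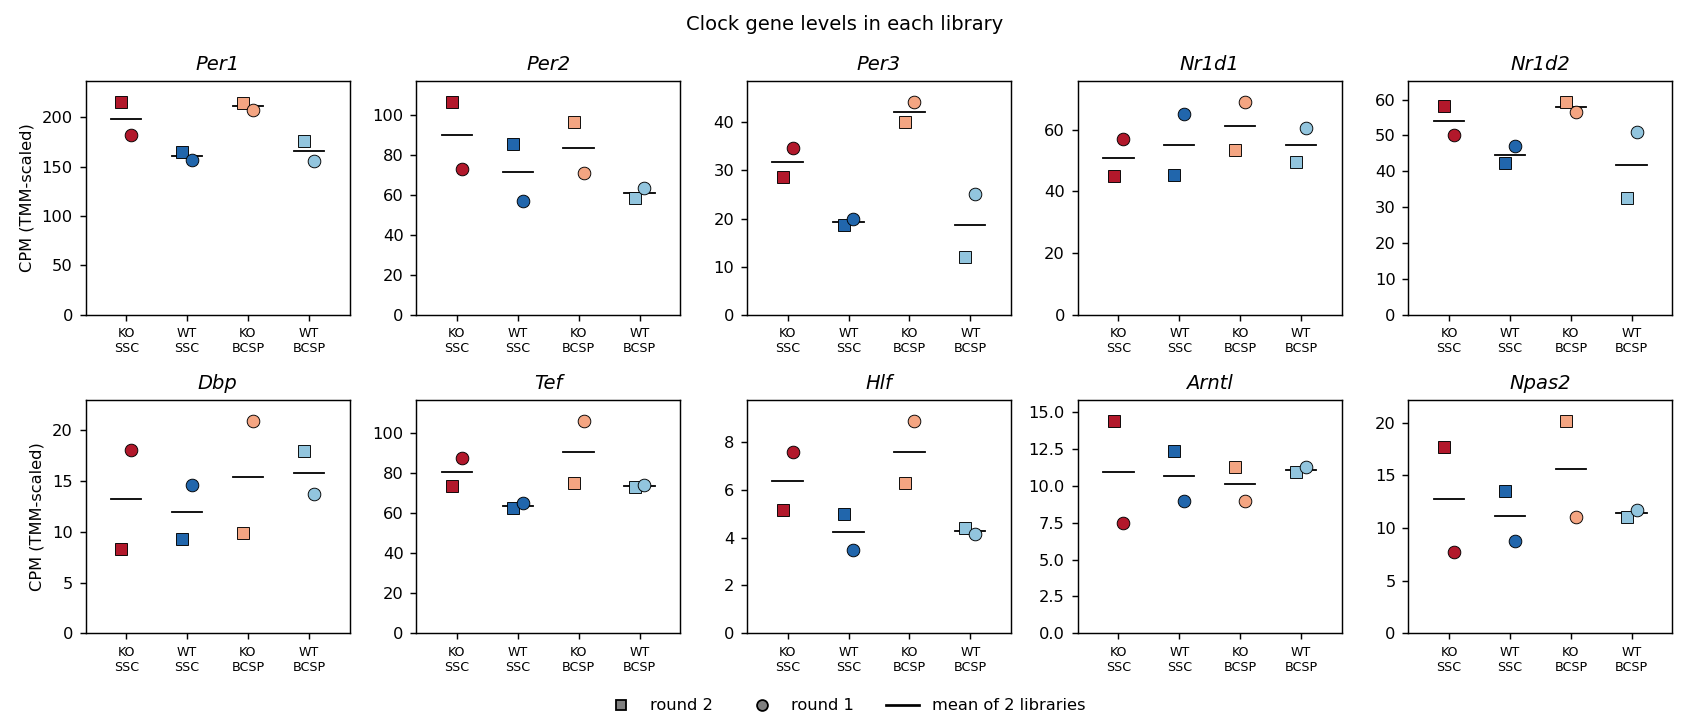
Level of each clock gene in CPM (TMM-scaled, axis from 0) in the 8 libraries, by group; squares are round 2, circles round 1, and lines the mean of the 2 libraries of a group. Per1, Per3 and Hlf are higher in all 4 KO libraries than in all 4 WT libraries, and Nr1d1 is lower in all 4 round 2 libraries than in all 4 round 1 libraries.

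The rounds were compared first, to see whether the evening arm and the Arntl arm differed in opposite ways between them. In the fit to all 8 libraries, with cell type, genotype and round as terms, none of the 10 genes passed an adjusted p of 0.05 by edgeR. Of all tested genes, 2.15% did. DESeq2 called 1 of the 10, Npas2, and 1128 of all 22153 tested genes. The same background holds for its later counts between rounds. By limma-voom 0 of the 10 were called, and 467 of all tested genes. At an unadjusted p under 0.05 there were 5 of the 10 genes by each tool, and of all tested genes 13.3% by edgeR, 13.9% by limma-voom and, by DESeq2, 3534 of 22153. With no filter on low counts, where 1062 of 33146 genes passed, edgeR called 2 of the 10, Npas2 (0.65, adjusted p = 0.00941) higher and Dbp (-0.61, adjusted p = 0.0186) lower in round 2, and it called the same 2 when the WT BCSP library of round 1 was left out (adjusted p = 0.022 and 0.0163). Without the library labelled WT BCSP round 2, edgeR called 5 of the 10 genes, against a background of 16.5% of the genes tested: Arntl, Npas2 and Per2 were higher in round 2, and Dbp and Nr1d1 were lower.

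Arntl, the activator of the loop, had 14.4 and 7.50 CPM in KO SSC, 12.4 and 8.95 CPM in WT SSC, 11.3 and 8.99 CPM in KO BCSP, and 10.9 and 11.3 CPM in WT BCSP. Round 2 was the higher library in 3 groups, and in WT BCSP the levels were close to each other. Its log2 fold change of round 2 over round 1 was 0.42 ± 0.18 (adjusted p = 0.313, edgeR) over all libraries. Without the library labelled WT BCSP round 2 it was 0.54 ± 0.15 (adjusted p = 0.00365, edgeR). Npas2, whose protein can take the place of CLOCK as the partner of BMAL1, had 17.7 and 7.71 CPM in KO SSC, 13.5 and 8.81 CPM in WT SSC, 20.2 and 11.0 CPM in KO BCSP, and 11.1 and 11.7 CPM in WT BCSP. The exons of Arntl share 33 bases with Gm45355 on the other strand. The pattern of Npas2 over groups was that of Arntl, with the KO SSC library of round 1 lowest for both genes. The log2 fold change of Npas2 was 0.66 ± 0.19 (adjusted p = 0.123, edgeR) over all libraries and 0.88 ± 0.14 (adjusted p = 1.6e-08, edgeR) without the library labelled WT BCSP round 2. Across the 8 libraries log2 levels of Npas2 and Arntl had a Pearson r of 0.81, or 0.83 over the 7 libraries without that one.

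Dbp, an activator at D-boxes and a direct target of BMAL1, had 8.34 and 18.0 CPM in KO SSC, 9.29 and 14.6 CPM in WT SSC, 9.84 and 20.9 CPM in KO BCSP, and 18.0 and 13.7 CPM in WT BCSP. Round 2 was the lower library in 3 groups, and the library labelled WT BCSP round 2 lay with the round 1 libraries. The log2 fold change was -0.61 ± 0.22 (adjusted p = 0.238, edgeR), and -0.88 ± 0.14 (adjusted p = 7.35e-09, edgeR) without that library. Of the exons of Dbp, 539 bases overlap those of Sphk2 on the other strand, so reads there could come from either gene where counting ignored strand, and Sphk2 differed by a log2 fold change of 0.04 between rounds (adjusted p = 0.963, edgeR).

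Tef, of the same family of D-box activators, had 73.7 and 87.7 CPM in KO SSC, 62.6 and 65.0 CPM in WT SSC, 75.3 and 106.3 CPM in KO BCSP, and 73.4 and 74.4 CPM in WT BCSP. Round 2 was lower in all 4 groups, with the wider gaps in the KO groups. Its log2 fold change was -0.20 ± 0.13 (adjusted p = 0.574, edgeR) over all libraries, and -0.37 ± 0.12 (adjusted p = 0.0152, edgeR) in the KO libraries alone, where 18.2% of the genes tested were called. In the WT libraries alone it was -0.06 ± 0.35 (adjusted p = 0.99965, edgeR). The exons of Tef share 193 bases with Gm17597 on the other strand. Hlf, the third member of the family, had 5.15 and 7.59 CPM in KO SSC, 4.97 and 3.48 CPM in WT SSC, 6.30 and 8.88 CPM in KO BCSP, and 4.41 and 4.14 CPM in WT BCSP. Here round 2 was lower in the KO groups and higher in the WT groups, and the log2 fold change over all libraries was -0.11 ± 0.21 (adjusted p = 0.898, edgeR). Tef was at -0.25 ± 0.10 (adjusted p = 0.0795, edgeR) and Hlf at -0.12 ± 0.18 (adjusted p = 0.752, edgeR) without the library labelled WT BCSP round 2. Whether the rounds differed between genotypes was not tested.

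Nr1d1, which encodes the repressor REV-ERB alpha, had 44.8 and 57.0 CPM in KO SSC, 45.2 and 65.1 CPM in WT SSC, 53.4 and 68.9 CPM in KO BCSP, and 49.4 and 60.6 CPM in WT BCSP. It was the 1 gene of the 10 whose rounds did not overlap, as was true of 7.63% of all tested genes. Its log2 fold change was -0.39 ± 0.13 (adjusted p = 0.175, edgeR), and -0.37 ± 0.10 (adjusted p = 0.00479, edgeR) without the library labelled WT BCSP round 2. Its exons share 263 bases with Thra on the other strand, and Thra had a log2 fold change of 0.26 (adjusted p = 0.54, edgeR). Nr1d2, which encodes REV-ERB beta, had 58.3 and 50.1 CPM in KO SSC, 42.2 and 47.0 CPM in WT SSC, 59.3 and 56.5 CPM in KO BCSP, and 32.5 and 50.9 CPM in WT BCSP. Rounds had no common direction for this gene, with a log2 fold change of -0.13 ± 0.15 (adjusted p = 0.83, edgeR) that turned to 0.04 without the library labelled WT BCSP round 2.

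Among the period genes, whose proteins inhibit BMAL1, Per1 had 215.3 and 182.0 CPM in KO SSC, 164.9 and 156.9 CPM in WT SSC, 215.0 and 207.6 CPM in KO BCSP, and 176.1 and 155.9 CPM in WT BCSP. Round 2 was slightly higher in every group, with a log2 fold change of 0.13 ± 0.12 (adjusted p = 0.749, edgeR), or 0.14 ± 0.10 (adjusted p = 0.439, edgeR) without the library labelled WT BCSP round 2. Per2 had 106.4 and 73.2 CPM in KO SSC, 85.5 and 57.2 CPM in WT SSC, 96.6 and 70.8 CPM in KO BCSP, and 58.3 and 63.5 CPM in WT BCSP. Like the Arntl arm, Per2 was higher in round 2 in 3 groups and not in WT BCSP. The log2 fold change was 0.36 ± 0.14 (adjusted p = 0.279, edgeR), and 0.50 ± 0.10 (adjusted p = 2.55e-05, edgeR) without the library labelled WT BCSP round 2. Per3 had 28.7 and 34.6 CPM in KO SSC and 18.7 and 19.9 CPM in WT SSC. In BCSP it had 40.1 and 44.2 CPM in KO, and 12.04 and 25.1 CPM in WT. Round 2 was lower in every group, most in WT BCSP, and the log2 fold change was -0.36 ± 0.18 (adjusted p = 0.434, edgeR), or -0.14 ± 0.11 (adjusted p = 0.465, edgeR) without the library labelled WT BCSP round 2.

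**Figure D2:**
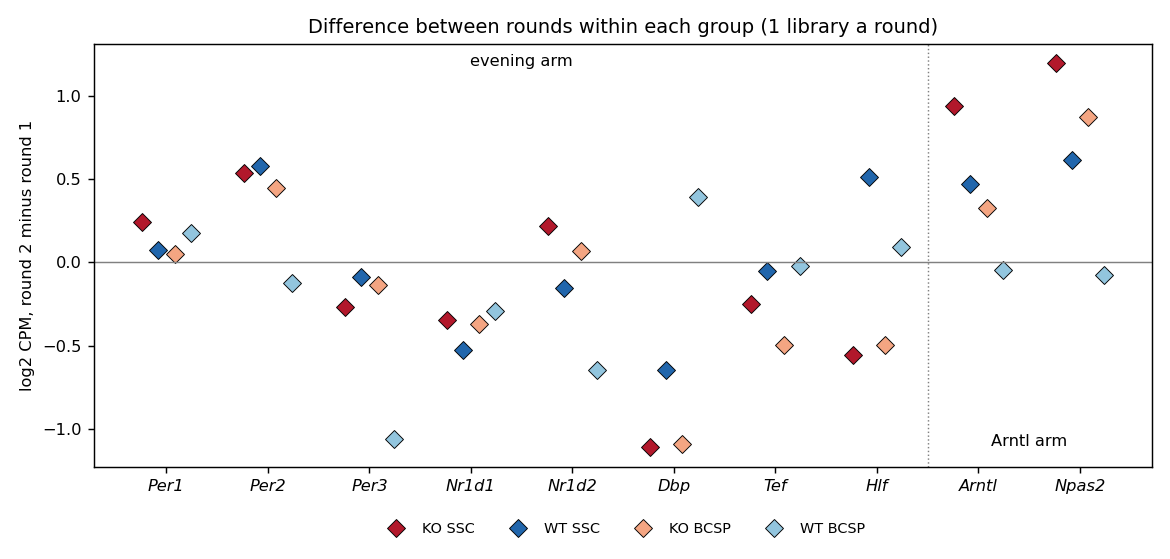
Difference of log2 CPM, round 2 minus round 1, of each clock gene within each of the 4 groups; each diamond is 1 library minus 1 library, and a dotted line parts the evening arm on the left from the Arntl arm. Arntl and Npas2 lie above 0 and Dbp below 0 in 3 groups but not in WT BCSP, Per2 lies with the Arntl arm, and Nr1d1 lies below 0 in all 4 groups.

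Counted over groups, 4 of the 10 genes (Per1, Per3, Nr1d1 and Tef) had round 2 on the same side of round 1 in all 4 groups, and 19.9% of all tested genes did. In WT BCSP the difference on the log2 scale was 0.39 for Dbp, -0.13 for Per2, -0.04 for Arntl and -0.07 for Npas2, the opposite side from the other groups in each case. The SSC libraries alone gave the same 5 calls as the fit without the library labelled WT BCSP round 2, with Arntl at 0.72 ± 0.19 (adjusted p = 0.0048), Npas2 at 0.92 ± 0.19 (adjusted p = 0.000122), Per2 at 0.57 ± 0.14 (adjusted p = 0.00139), Dbp at -0.87 ± 0.18 (adjusted p = 0.000231) and Nr1d1 at -0.42 ± 0.14 (adjusted p = 0.0312, all by edgeR), where 9.7% of the genes tested were called. The BCSP libraries alone gave 0 calls among the 10 genes by edgeR, with 0 at an unadjusted p under 0.05, against 0.251% of the genes tested called, and Arntl was at 0.15 ± 0.41 and Dbp at -0.34 ± 0.41 (adjusted p = 1 for both, edgeR). The KO libraries alone gave 6 calls, the same 5 and Tef. The WT libraries alone gave 0, with 0 at an unadjusted p under 0.05, against 0.865% of the genes tested called. All of these subsets are part of the same libraries and no second measurement.

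Other genes moved with the round. All 10 immediate-early genes, which respond within minutes to stimuli such as tissue dissociation, had log2 fold changes above 0, and 3 were called higher in round 2 by edgeR, Jun (0.65), Fosb (0.62) and Atf3 (0.67), against the 2.15% of all tested genes given above. DESeq2 called 6 of them higher, and edgeR 8 in the libraries other than the one labelled WT BCSP round 2, where 16.5% of the genes tested were called. Their summed level was 26687 to 31798 CPM in round 2 and 20128 to 21443 CPM in round 1, with no overlap. Of 9 glucocorticoid-induced genes, 5 had log2 fold changes above 0 and 4 below, Fkbp5 (-0.15), Tsc22d3 (-0.19), Sgk1 (-0.24) and Cdkn1c (-0.50). By edgeR 3 were called higher in round 2, Zbtb16 (0.93), Klf9 (0.67) and Errfi1 (0.59), and Dusp1 stands in both lists. DESeq2 called 4 higher and 1 lower, and edgeR called 5 higher and 2 lower when the library labelled WT BCSP round 2 was left out. Per1 and Per2 are themselves known to respond to glucocorticoids. Markers of neutrophils summed to 0.139 to 1.37 CPM in round 2 and 9.35 to 171.5 CPM in round 1, and those of erythroid cells to 2.45 to 5.01 CPM in round 2 and 4.69 to 36.9 CPM in round 1. None of these markers was at 0 in all libraries. Of 6 neutrophil markers Mpo was called lower in round 2, and of 6 erythroid markers Hba-a1 was. Osteoblast genes Ibsp and Bglap, the macrophage gene Lyz2 and the sort marker Cd200 were called lower in round 2 as well, and the muscle gene Acta1 higher. Of the 4 macrophage markers tested, Lyz2 had a log2 fold change of -2.08, Cd68 of 0.54 and Csf1r of 1.15, and C1qa had at most 0.114 CPM in any library. Of the 4 muscle markers tested, Tnnt3 was at -0.30, and Myh3 and Ckm had at most 0.188 CPM and 0.139 CPM in any library. The part of these differences in the levels of the clock genes was not tested. An exon length term in the fit left all 10 clock genes short of the threshold, Npas2 at an adjusted p of 0.0691 and Dbp at 0.075 (edgeR).

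The arms were set against each other within each library, as the mean log2 CPM of the 8 evening genes minus that of Arntl and Npas2. The difference was 1.29 and 2.55 in KO SSC, 1.36 and 1.94 in WT SSC, 1.52 and 2.37 in KO BCSP, and 1.55 and 1.67 in WT BCSP. All 4 round 2 libraries lay below all 4 round 1 libraries, the closest being 1.55 and 1.67, both of WT BCSP. Of single tested genes, 7.63% had rounds that did not overlap, either way, and no share was computed for scores of this kind. Within groups, round 2 minus round 1 came to -1.26 in KO SSC, -0.58 in WT SSC, -0.85 in KO BCSP and -0.13 in WT BCSP, a mean of -0.70, or -0.90 without WT BCSP. The genes of the difference were chosen with these data known and it has no test. Taken alone, neither arm parted the rounds. The evening mean ran from 5.01 to 5.4363 log2 CPM in round 2 and from 5.0904 to 5.6891 in round 1. The Arntl mean ran from 3.4632 to 3.9989 log2 CPM in round 2 and from 2.9301 to 3.5218 in round 1. The median log2 fold change between rounds was -0.16 for the evening arm and 0.54 for the Arntl arm. Of the 8 evening genes, 6 were below 0 and 2, Per1 and Per2, above it.

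Levels of Arntl were correlated with those of each evening gene across the 8 libraries on the log2 scale, 8 correlations in all, with exact two-sided permutation tests adjusted over the 8. Dbp ran opposite to Arntl most closely, with a Pearson r of -0.80 (p = 0.0176, adjusted p = 0.14, exact permutation) and a Spearman rho of -0.86 (p = 0.0107, adjusted p = 0.0857, exact permutation). Scaled by library totals in place of TMM, the r of Dbp was -0.914 (adjusted p = 0.00734, exact permutation). Without the 2 libraries farthest from the median of Arntl, both KO SSC libraries, it was -0.71, and without the library labelled WT BCSP round 2 it was -0.881. Within round 2 it was -0.72 and within round 1 -0.59, each over 4 libraries. Nr1d1 followed with an r of -0.73 (p = 0.043, adjusted p = 0.172, exact permutation) and a rho of -0.69 (p = 0.0694, adjusted p = 0.278, exact permutation). Its r was -0.87 without those 2 libraries, but -0.78 within round 2 and 0.23 within round 1, so the relation did not hold within both rounds. Over the 7 libraries without the one labelled WT BCSP round 2, the r of Nr1d1 was -0.734 (adjusted p = 0.273, exact permutation), and those of the other 6 genes ran from -0.491 for Tef to 0.662 for Per2. For the other 6 genes r ran from -0.49 for Tef to 0.56 for Per2, with a lowest adjusted p of 0.400 (exact permutation), that of Per2. With library totals the r of Per3 was 0.00374, against -0.26 with TMM.

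**Figure D3:**
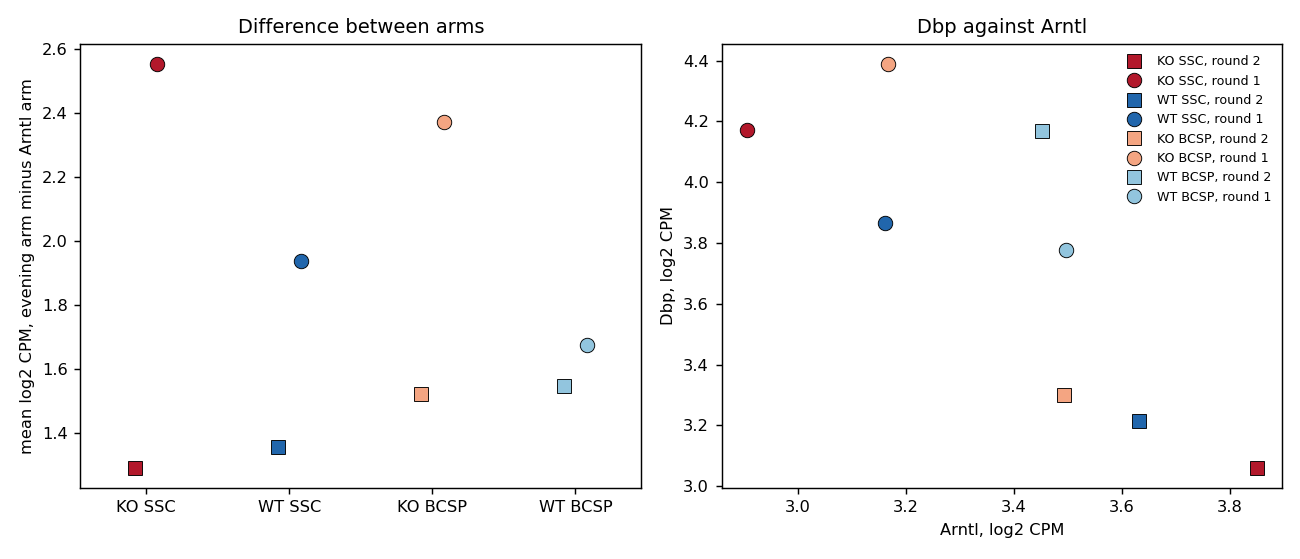
Left, mean log2 CPM of the evening arm minus that of the Arntl arm in each library, by group. Right, Dbp against Arntl in log2 CPM; squares are round 2 and circles round 1 in both panels. The arm difference is 1.29 to 1.55 in round 2 and 1.67 to 2.55 in round 1, and Dbp runs opposite to Arntl with an r of -0.80.

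The genotypes were compared next, to see whether loss of Tet1 goes with other levels of clock genes. Over both cell types no clock gene passed by edgeR, where 0.0135% of all tested genes did. At an unadjusted p under 0.05 there were 5 of the 10 genes by edgeR and by limma-voom, which also called 0. There were 6 by DESeq2, which called 1, Per3, and 103 of all tested genes. Of all tested genes, the shares at that unadjusted p were 7.91% by edgeR, 8.75% by limma-voom and, by DESeq2, 2218 of 22153. In SSC alone and in BCSP alone none of the 10 was called by edgeR, DESeq2 or limma-voom, and the background by edgeR was 0.00451% in each. At an unadjusted p under 0.05 there was 1 of the 10 in SSC and 2 of the 10 in BCSP by each tool. Of all 22153 tested genes in SSC, 266 had such a p by edgeR, 418 by DESeq2 and 284 by limma-voom. In BCSP these were 1371, 1830 and 1437.

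Per3 had the largest difference. It averaged 36.9 ± 6.70 CPM in KO libraries and 18.9 ± 5.37 CPM in WT libraries (SD, n = 4 each), and the lowest KO library, at 28.7 CPM, lay above the highest WT library, at 25.1 CPM. Its log2 fold change was 0.95 ± 0.21 (unadjusted p = 0.000517, adjusted p = 0.294, edgeR), with 0.72 ± 0.30 in SSC (adjusted p = 1, edgeR) and 1.18 ± 0.30 in BCSP (adjusted p = 0.686, edgeR). Pair by pair, KO minus WT on the log2 scale was 0.62 in SSC of round 2 and 0.80 in SSC of round 1. In BCSP it was 1.74 in round 2 and 0.81 in round 1. Pairs here and below go by the round number in the titles alone, and the main genotype fits did not use them. Without the library labelled WT BCSP round 2 the fold change was 0.73 ± 0.14 over both cell types (adjusted p = 0.121, edgeR) and 0.75 ± 0.25 in BCSP (adjusted p = 0.99, edgeR). Per3 was called higher in KO with no filter on low counts (adjusted p = 4.08e-05, edgeR) and by DESeq2 (adjusted p = 0.0166). Of all genes, 234 of 33146 were called with no filter and 103 of 22153 by DESeq2. With no filter edgeR also called it in BCSP, at 1.18 ± 0.27 (adjusted p = 0.0140), where 0.115% of the genes tested were called. Over 17 alternatives, of which 3 gave a call, its adjusted p over both cell types ran from 4.08e-05 to 0.648. The difference between the effects in SSC and BCSP was -0.47 ± 0.42 (adjusted p = 1, edgeR). Of all genes, 0.0% passed that interaction test by edgeR, with 282 at an unadjusted p under 0.05, and DESeq2 and limma-voom called 0 as well. None of the 10 clock genes had an unadjusted p under 0.05 there by any of the 3 tools.

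Hlf averaged 6.98 ± 1.61 CPM in KO libraries and 4.25 ± 0.617 CPM in WT libraries (SD, n = 4 each), a log2 fold change of 0.71 ± 0.22 (adjusted p = 0.608, edgeR). The lowest KO library had 5.15 CPM and the highest WT library 4.97 CPM. Per1 averaged 205.0 ± 15.7 CPM in KO libraries and 163.5 ± 9.32 CPM in WT libraries (SD, n = 4 each), with a lowest KO library of 182.0 CPM and a highest WT library of 176.1 CPM. Its log2 fold change was 0.33 ± 0.14 (adjusted p = 0.621, edgeR). Per1, Per3 and Hlf, 3 of the 10 genes, had all 4 KO libraries above all 4 WT libraries, and 2.13% of all tested genes did.

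For Nr1d2 the means were 56.0 ± 4.13 CPM in KO libraries and 43.1 ± 7.94 CPM in WT libraries (SD, n = 4 each). The groups overlapped by little, with the lowest KO library at 50.1 CPM and the highest WT library at 50.9 CPM, and the log2 fold change was 0.38 ± 0.16 (adjusted p = 0.614, edgeR). That value was 0.24 ± 0.13 without the library labelled WT BCSP round 2, in which Nr1d2 was lowest. Per2 averaged 86.7 ± 17.5 CPM in KO libraries and 66.1 ± 13.2 CPM in WT libraries, and Tef 85.8 ± 15.1 CPM in KO libraries and 68.8 ± 5.91 CPM in WT libraries (SD, n = 4 each). Both overlapped between genotypes, with log2 fold changes of 0.40 ± 0.18 for Per2 (adjusted p = 0.628, edgeR) and 0.32 ± 0.15 for Tef (adjusted p = 0.628, edgeR). With Per1, Per3 and Hlf, these 3 genes had KO above WT in all 4 pairs of the same cell type and round number. So 6 of the 10 did, against 10.6% of all tested genes, while the p-values given here are of fits without such pairs. Without the library labelled WT BCSP round 2 the log2 fold changes were 0.36 ± 0.14 for Per1, 0.70 ± 0.24 for Hlf, 0.36 ± 0.19 for Per2 and 0.32 ± 0.15 for Tef (adjusted p = 0.932 for each, edgeR).

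The remaining evening genes and the Arntl arm did not show such a separation. Nr1d1 averaged 56.0 ± 9.97 CPM in KO libraries and 55.1 ± 9.32 CPM in WT libraries, and Dbp 14.3 ± 6.15 CPM in KO libraries and 13.9 ± 3.58 CPM in WT libraries (SD, n = 4 each). Arntl averaged 10.5 ± 3.01 CPM in KO libraries and 10.9 ± 1.43 CPM in WT libraries, and Npas2 14.2 ± 5.78 CPM in KO libraries and 11.3 ± 1.94 CPM in WT libraries (SD, n = 4 each). The log2 fold changes were 0.02 ± 0.17 for Nr1d1, 0.05 ± 0.28 for Dbp, -0.05 ± 0.21 for Arntl and 0.32 ± 0.27 for Npas2, none called. Without the library labelled WT BCSP round 2 they were -0.06 ± 0.16 for Nr1d1, 0.15 ± 0.35 for Dbp, -0.04 ± 0.23 for Arntl and 0.28 ± 0.34 for Npas2, none called, so that of Nr1d1 changed its sign. For each of the 4 genes the KO library was the higher in 2 of the 4 pairs. In KO libraries the SD of every clock gene but Nr1d2 was larger than in WT libraries. Within each cell type the rounds of Arntl, Npas2, Dbp, Tef and Hlf lay farther apart in KO than in WT. Across cell types this did not hold for Arntl, with a log2 difference of 0.47 in WT SSC and 0.32 in KO BCSP. Nor did it for Hlf, with 0.51 in WT SSC and -0.50 in KO BCSP. Of all genes tested, edgeR called 18.2% between rounds in the KO libraries alone and 0.865% in the WT libraries alone. The WT values include the library labelled WT BCSP round 2.

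**Figure D4:**
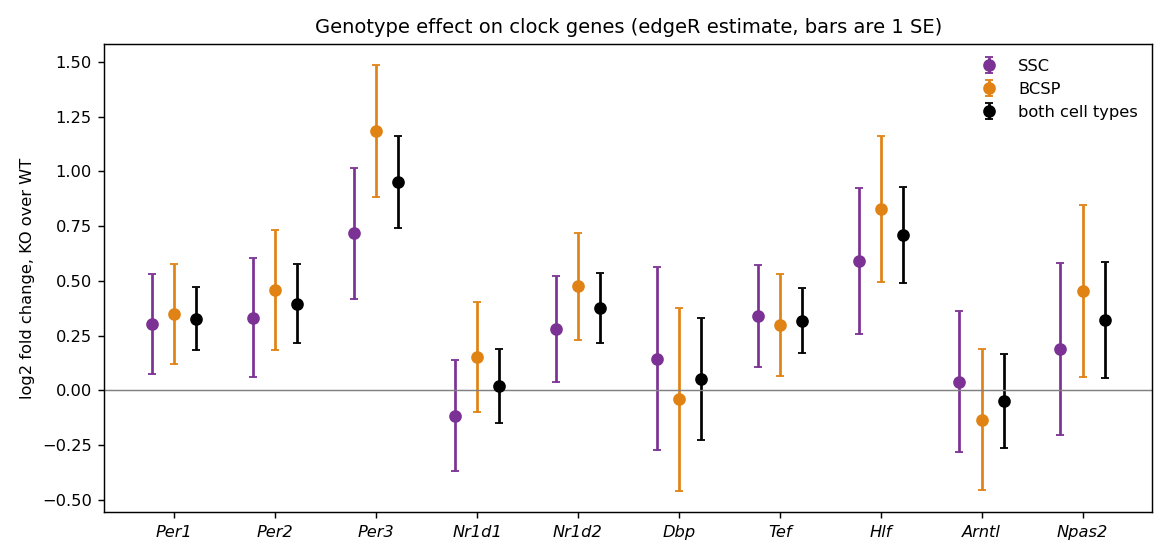
Log2 fold change of KO over WT for each clock gene in SSC, in BCSP and over both cell types, as estimated by edgeR; bars are 1 SE. Per3 (0.95) and Hlf (0.71) have the highest estimates over both cell types, and Nr1d1, Dbp and Arntl lie near 0; no estimate passed the adjusted threshold.

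Differences between the cell types were small next to their errors. Log2 fold changes of SSC over BCSP over both genotypes ran from -0.32 ± 0.28 for Dbp to 0.17 ± 0.18 for Per2. None of the 10 was called by edgeR, DESeq2 or limma-voom, and none had an unadjusted p under 0.05. The background by edgeR was again 0.00451% of tested genes, which is Eng alone (-3.84, adjusted p = 1.26e-06). Without the library labelled WT BCSP round 2, 1 of the 10 genes had an unadjusted p under 0.05, Per3 at -0.40 ± 0.14 (adjusted p = 0.834, edgeR).

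Other genes of the clock were described alongside. Of 11 further core genes 10 were tested, Rorb not, and none passed by edgeR between rounds, where 2 had an unadjusted p under 0.05 and the median log2 fold change was 0.14 (0.01 over all tested genes). Nfil3, a repressor at D-boxes, was at 0.54 (adjusted p = 0.0862, edgeR). DESeq2 called 2 higher in round 2, and limma-voom called 0. In the fit that leaves out the library labelled WT BCSP round 2, edgeR called 3 of the 10 higher, 4 had an unadjusted p under 0.05 and the median was 0.13. Ciart, a repressor in the loop, was at -0.38 (adjusted p = 0.477, edgeR), and Rora, an activator at ROREs, at 0.30 (adjusted p = 0.54, edgeR). The 9 kinases and ligases that act on clock proteins had a median of 0.05, and none reached an unadjusted p under 0.05 or a call by any of the 3 tools; those with the smallest p were Fbxl21 (0.56), Timeless (-0.17), Btrc (0.12) and Fbxw11 (-0.09). Among 8 output genes the median was 0.04, and Usp2, a ubiquitin protease under clock control, was at 0.55 (adjusted p = 0.0855, edgeR). It had the 1 unadjusted p under 0.05 by edgeR and by limma-voom, which called 0, and the 1 call by DESeq2. In the fit that leaves out the library labelled WT BCSP round 2, edgeR called 3 of the 8, 1 higher and 2 lower, with a median of -0.02. For Tspan4 the value over all libraries was -0.28, for Tsc22d3 -0.19 and for Wee1 0.13.

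Between genotypes over both cell types, edgeR, DESeq2 and limma-voom called none of these core, kinase, output, glucocorticoid-induced or immediate-early genes. The median log2 fold change was 0.20 for the core genes, 0.06 for the kinases and ligases and 0.09 for the output genes, against 0.02 for all tested genes. At an unadjusted p under 0.05 edgeR had 0 of the 10 core genes, 0 of the 9 kinases and ligases, 1 of the 8 output genes, 3 of the 9 glucocorticoid-induced genes and 0 of the 10 immediate-early genes. Neutrophil markers, which differed with the round, summed to 1.33 to 43.0 CPM in KO libraries and 0.139 to 171.5 CPM in WT libraries, with overlap.

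The mean z-score of the 8 evening genes ran from 0.11 to 1.12 in KO libraries and from -0.72 to -0.25 in WT libraries. Among 12624 other genes of at least 1 CPM, those most like it across the 8 libraries were Gpr161 (r = 0.949), Fmnl3 (0.948), Iqcb1 (0.945), Cyp27b1 (0.939) and Zbtb7a (0.936). Those running most opposite to it were Pm20d1 (r = -0.972), Plekhb1 (-0.968), Rabl2 (-0.964), Acta1 (-0.963) and Dstn (-0.963). With so many genes and 8 libraries that share groups, these are descriptions without a test. Acta1, a marker of muscle cells, averaged 3.10 CPM in KO libraries and 11.6 CPM in WT libraries (log2 fold change -1.93, adjusted p = 0.217, edgeR). The 5 muscle markers summed to 7.14 to 10.8 CPM in KO libraries and 11.4 to 25.1 CPM in WT libraries, with no overlap. Most of that sum was Acta1 and Tnnt3, with 7701 and 7002 counts over all libraries, against 41 for Myh3 and 62 for Ckm. Of the 4 tested, Tnnt3 was also lower in KO (-0.68), while Myh3 (1.62) and Ckm (1.77) went the other way. The median of the 4 was 0.47. The part of the muscle markers in the genotype differences of the clock genes was not tested.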

How the data were processed

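The deposited table holds whole-number counts per gene for 8 libraries, made by the authors from paired reads of 150 bases. STAR and featureCounts on mm10, and DESeq2, are named per the submitters' processing notes with no versions, while the table's name points to htseq, so the counter is not settled. Strand and annotation of the counting are not given in the sources used here. Column names SCC and BCP were read as SSC and BCSP, which each match a single title. Of the entries, 54573 of 55471 matched GENCODE M21 by ID, which gave exon lengths.

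Counts were scaled by TMM and filtered by filterByExpr (minimum count 10, minimum total 15), which left 22153 genes. edgeR 4.0.16 (R 4.3.3) quasi-likelihood models were fitted to all libraries: 1 mean per group for contrasts within a cell type, cell type plus genotype for effects over both, and cell type plus genotype plus round for rounds. Benjamini-Hochberg adjustment ran over all tested genes, with 0.05 as threshold; common biological variation was 0.525. The additive models treat SSC and BCSP libraries as independent. Log CPM used a prior count of 2. DESeq2 1.42.0, limma-voom (limma 3.58.1), other scalings, no filter, an exon length offset, a replicate block and each library left out were alternatives. Permutation tests used scipy 1.17.1. The models were also run on simulated counts that varied much less between libraries than these data do. That run does not measure their power or error rate here.

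The clock genes, the lists and the tests were chosen with earlier results of these data known. Named were all 10 clock genes and, from each list, every gene that passed, or otherwise up to 4 with the smallest p between rounds; of 12624 genes, the 5 most like and the 5 least like the evening arm; and Tet1 and Eng as checks of the labels. Thra, Sphk2 and the genes named from lists in which others passed were added after their values were seen. A gene that this rule names is not reported here.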

Additional observations from a re-analysis of the deposited data

Results flagged for a closer look

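Tef was lowest in the WT SSC library among the 4 libraries of round 2, at 62.6 CPM, where the others had 73.7 CPM (KO SSC), 75.3 CPM (KO BCSP) and 73.4 CPM (the library labelled WT BCSP). The gap to its nearest neighbour was 0.862 of the range of the 4, above Dixon's 95% critical value for 4 samples. Of 44 groups of 4 libraries examined this was the 1 found, and chance flags about 5% of groups.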

How the results depend on the processing

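Of 625 values for single clock genes under alternatives, 573 kept their direction and their side of the threshold and 30 passed it newly. With at least 456 counts for each clock gene in each library, the spread between 2 libraries a group limits precision; the cause of the changes listed here was not tested. Calls between rounds (476) came to 1062 with no filter, 1128 by DESeq2, 852 with the exon length offset, 222 with round alone, 1956 in SSC, 49 in BCSP, 3650 in KO, 170 in WT, 3740 without both WT BCSP libraries, and 208 to 4072 with 1 library left out. KO against WT in SSC (1 call) gave 4 with no filter, 9 by DESeq2, 0 by limma-voom and 1 to 4 with 1 library left out. In BCSP (1 call) these were 38 with no filter, 20 by DESeq2 and 1 to 2 with 1 library left out. Over both cell types (3 calls) they were 234 with no filter, 103 by DESeq2, 1 each with library totals, limma-voom and the length offset, 11 without both BCSP libraries of round 2, and 1 to 12 with 1 library left out. SSC against BCSP (1 call) gave 66, 39, 36 and 1 to 3 under no filter, DESeq2, without both BCSP libraries of round 2 and with 1 library left out. In the main fits round numbers were not taken to pair libraries, since deviations of same-numbered libraries correlated at 0.059 to 0.645 between groups. The low values, 0.059 to 0.273, were all those with WT BCSP, and between the other groups they were 0.559 to 0.645. With the replicate block, calls were 2 in SSC, 3 in BCSP, 2 for the interaction, 28 over both and 2 between cell types, and with the block and the length offset 3, 8, 1, 94 and 41; Per3 over both had an adjusted p of 0.0769 with the block alone and 0.0185 with both (edgeR). Among uncalled values, the sign turned between rounds for Nr1d2 (0.0442 in SSC, 0.148 in KO, 0.0448 without both WT BCSP libraries, and -0.244 to 0.0389 with 1 library left out) and for Hlf (0.277 in WT, and -0.298 to 0.0170 with 1 left out). It turned between genotypes over both cell types for Nr1d1 (-0.0152 without both BCSP libraries of round 2, and -0.0884 to 0.159 with 1 left out), Dbp (-0.0429 by limma-voom, -0.0468 with the replicate block, and -0.224 to 0.258 with 1 left out) and Arntl (0.00297 with library totals, and -0.275 to 0.0984 with 1 left out). The correlation with Arntl turned for Per3 (0.00374) and strengthened for Dbp (-0.914) with library totals, and with 1 library left out ran from -0.147 to 0.356 for Per1 and from -0.269 to 0.147 for Nr1d2. With mean z-scores in place of log2 CPM, the arm difference of round 2 minus that of round 1 averaged -1.81 over the 4 groups. Upstream of the start alone, 0 Arntl windows held a RORE.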
